A study of Mus musculus with 30 samples.

Results

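HOPX and the core cardiac transcription factors are the regulators that set and keep the identity of heart muscle cells, and their 10 genes (Hopx, Gata4, Gata6, Nkx2-5, Mef2a, Mef2c, Mef2d, Tbx5, Tbx20 and Hand2) were taken by symbol from a deposited table of 13575 genes, in which each had 1 row. All 10 passed the filter on low values that left 13256 genes to test. The RNA was from hearts of mice aged 2 months, taken at 1 time of day only (ZT10) with the atria trimmed, so a changed level and a shifted daily rhythm cannot be told apart. There were 3 libraries labelled CM-RevDKO, in which Rev-erba and Rev-erbb, the REV-ERB nuclear receptors that repress transcription in the circadian clock, are deleted in cardiomyocytes. Against them stood 3 libraries labelled control, from mice with the floxed alleles. For hearts of the chromatin experiments the labels give aMHC-Cre present against absent on floxed Rev-erba/b. The alpha myosin heavy chain promoter drives Cre in cardiomyocytes, and other heart cells keep both receptors. If the RNA controls likewise lack Cre, what Cre does by itself and what receptor loss does cannot be told apart. Of 30 samples in the series, the 24 of chromatin were not analysed here.

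GATA4 and GATA6 (zinc finger proteins), NKX2-5 (a homeodomain protein), TBX5 and TBX20 (T-box proteins), HAND2 (a basic helix-loop-helix protein) and the MEF2 proteins (of the MADS-box family) bind DNA at the same cardiac genes and physically contact each other, so that they act in combination. HOPX is a very small homeodomain protein that does not bind DNA. It contacts SRF, the activator of contractile and cytoskeletal genes, and lowers its activity, in part through the histone deacetylase HDAC2. In the mouse embryo Hopx lies downstream of NKX2-5, and it stays on in the adult myocardium and conduction system.

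Hopx was the single member that passed the test, and it fell to under 50% of its control level in the libraries labelled CM-RevDKO. Nkx2-5 stood higher and Mef2a lower in all 3 of these libraries than in any control library, but neither passed. Gata4 and Hand2 stood higher without overlap by smaller amounts, and Gata6, Mef2c, Mef2d, Tbx5 and Tbx20 had overlapping groups. This holds for the deposited values, in which 23.1% of all genes tested did not overlap. Scaled without mitochondrially encoded genes, Gata4 and Hand2 overlapped and Tbx5 did not. Levels below are in FPKM, a unit adjusted for transcript length and sequencing depth, and can be set side by side between genes. Fold changes are on the log2(FPKM + 1) scale, with adjusted p-values from limma over all 13256 genes and a threshold of 0.05.

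The 2 targeted genes differed in opposite directions. Nr1d1, which encodes REV-ERBα, gave 55.6, 47.4 and 47.9 FPKM under the CM-RevDKO label, against 23.9, 22.6 and 15.0 FPKM under the control label, higher in the libraries labelled as deleted (adjusted p = 0.0124). Nr1d2, which encodes REV-ERBβ, gave 28.8, 26.6 and 26.7 FPKM, against 40.3, 30.6 and 36.3 FPKM in controls, without overlap but not past the test (adjusted p = 0.175). A gene-level value that takes in undeleted exons and other cell types does not check the deletion. Arntl and Nfil3, which REV-ERB is known to repress, were higher under the CM-RevDKO label, the direction that loss of the receptors gives. Arntl, the clock activator gene that encodes BMAL1, averaged 12.8 FPKM, against 0.174 FPKM in controls (adjusted p = 1.72e-05), and Nfil3 15.7 FPKM, against 2.89 FPKM (adjusted p = 0.00111). Gene totals and mitochondrially encoded shares were close between groups: 12104 to 12395 genes reached 1 FPKM in libraries labelled CM-RevDKO and 11967 to 12264 in controls, and 36.9% to 40.9% of the summed values, against 38.4% to 41.0% in controls, were mitochondrially encoded. The summed values themselves did not overlap, at 702391 to 712158 FPKM under the CM-RevDKO label, against 678722 to 691212 FPKM in controls. Small positive differences are read with that offset in mind. Cardiomyocyte markers (10 of 10 in the table) summed to 29766 to 33385 FPKM, against 29857 to 32008 FPKM in controls, so the labelled tissue had its defining markers. Single markers differed in both directions: 2 stood higher and 3 lower without overlap (12.6% and 10.5% of all genes tested), and none passed.

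**Figure D1:**
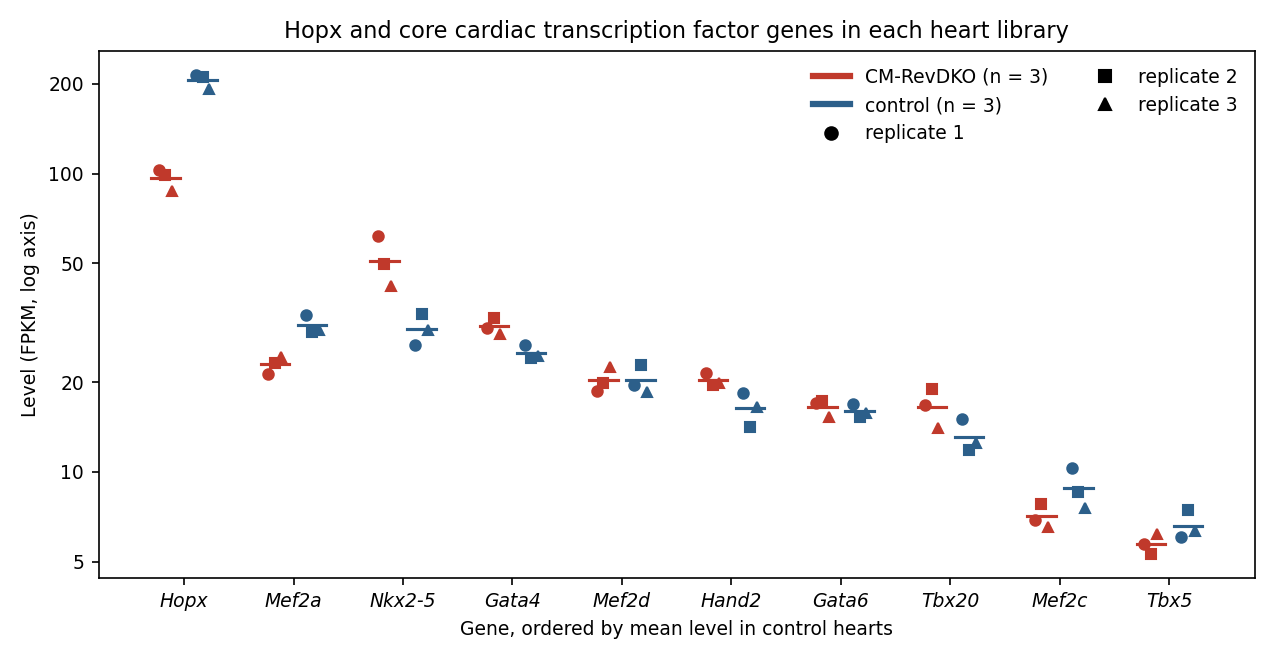
Level of each member in each library, in FPKM on a log axis, with CM-RevDKO (red) left of control (blue), symbols for replicates and bars for group means (n = 3 each). Hopx lies at 87.5 to 103 FPKM under the CM-RevDKO label, all below the 192 to 215 FPKM of controls, and it is the most abundant member in both groups.

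Hopx (ENSMUSG00000059325, chromosome 5, 77086986 to 77115123, GRCm38.p6, which is mm10) has 2 annotated start regions in RefSeq, an upstream and a downstream one. They are shown because the gene level sums transcripts from both and cannot say which of them carried the fall. Each window runs from 250 bases before to 50 bases after the start, read 5′ to 3′ on the minus strand. Capitals mark motif matches found by a search of both strands: a CArG box, the site of SRF, in the first window, and in the second an E-box (CACGTG), the site of BMAL1 with CLOCK, followed by an NKX site (TNAAGTG, on the opposite strand).

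Hopx upstream start (chr5:77115074-77115373): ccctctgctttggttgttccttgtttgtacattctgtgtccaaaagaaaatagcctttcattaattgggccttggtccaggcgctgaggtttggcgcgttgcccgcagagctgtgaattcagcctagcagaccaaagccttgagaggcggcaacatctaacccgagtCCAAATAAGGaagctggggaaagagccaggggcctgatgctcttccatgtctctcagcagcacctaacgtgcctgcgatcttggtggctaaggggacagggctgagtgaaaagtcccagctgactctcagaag
Hopx downstream start (chr5:77095218-77095517): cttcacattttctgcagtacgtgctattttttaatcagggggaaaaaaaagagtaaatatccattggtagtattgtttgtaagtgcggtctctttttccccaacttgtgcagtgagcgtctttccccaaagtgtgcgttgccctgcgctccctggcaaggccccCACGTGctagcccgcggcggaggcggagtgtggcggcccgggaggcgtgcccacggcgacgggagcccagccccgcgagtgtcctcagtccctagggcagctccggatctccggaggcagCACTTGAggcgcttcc

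The CArG box begins at -83 from the upstream start, and the E-box at -86 and the NKX site at 35 from the downstream start. In 32841 RefSeq promoter windows of 300 bases, 1.63% held a CArG box, 7.15% this E-box and 11.5% the NKX site. Neither Hopx window held the nuclear receptor half-site AGGTCA, which 16.3% of all windows held and which lies inside TAGGTCA (2.61%), the site of ROR and REV-ERB receptors, or the D-boxes TTATGTAA (0.938%) and TTACGTAA (0.119%) of E4BP4, the repressor that Nfil3 encodes. A match is a stretch of letters, not a shown binding site, and sites outside these windows were not searched.

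Hopx had 103, 99.2 and 87.5 FPKM in the libraries labelled CM-RevDKO, against 215, 211 and 192 FPKM in those labelled control. The groups did not overlap, and every CM-RevDKO library lay far below every control library. The means were 96.6 ± 8.14 FPKM under the CM-RevDKO label and 206 ± 12.3 FPKM in controls (SD, n = 3 each), a ratio of 0.469. The log2 fold change was -1.09 (SE 0.10, 95% interval -1.31 to -0.86, adjusted p = 0.00218), and Hopx ranked 38th of the 13256 genes by p. The background was 2.50% of genes past the test in either direction, 1.26% higher and 1.24% lower, and 1 of 10 members is too small a count to be read against it. In a bulk sample, fewer cells of a type and less RNA per cell cannot be told apart. The call was kept whichever 1 library was omitted (log2 fold change -1.14 to -1.02, adjusted p of 0.00694 to 0.0224). It ended when atrial transcripts entered as a covariate, although the fold change was -1.15 (adjusted p = 0.0723). That covariate was higher in every CM-RevDKO library than in any control library, so this fit cannot separate it from the label. Over all genes, calls went from 332 to 30 with it.

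Hopx was above 95.6% of tested genes in the libraries labelled CM-RevDKO and above 97.7% in controls, and it was the most abundant of the 10 members in both groups. The long noncoding RNA gene Hopxos overlaps Hopx over 3484 bases in RefSeq, and no source used here says whether counting used strand, so reads of that stretch cannot be assigned. Noncoding genes likewise overlap Gata6, Mef2c, Mef2d and Tbx5. Hopx also marks alveolar epithelium of the lung, so 9 lung epithelium markers were looked up, and 0 of the 9 had a row to analyse here.

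Hopx had close companions in profile. Among 6572 other genes averaging 5 FPKM or more, the 5 whose profiles over the 6 libraries, centred on their means, lay nearest to that of Hopx were Parm1, Rpl3l, F3, Lrrc2 and Ptpn3, at root mean square distances of 0.087 to 0.140 on the log2 scale. They were picked for that likeness, so their own falls are a description. Parm1, a mucin-like membrane protein gene, had 9.92, 10.2 and 10.0 FPKM in the libraries labelled CM-RevDKO and 21.6, 23.8 and 20.7 FPKM in those labelled control. Rpl3l, which encodes the muscle paralog of ribosomal protein L3, had 60.5, 58.8 and 52.7 FPKM, against 137, 144 and 141 FPKM in controls. Both stood at less than 50% of their control level in every CM-RevDKO library. F3, which encodes tissue factor, the starter of blood coagulation, averaged 4.62 FPKM under the CM-RevDKO label, against 9.44 FPKM in controls. Lrrc2 averaged 35.6 FPKM, against 76.0 FPKM in controls, and Ptpn3, a tyrosine phosphatase gene, 5.45 FPKM, against 13.6 FPKM in controls.

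Nkx2-5 (ENSMUSG00000015579, chromosome 17, 26838664 to 26844988), the homeodomain factor that is among the earliest marks of the cardiac lineage and binds the Nppa promoter, stood higher but did not pass the test. It had 61.6, 49.6 and 42.1 FPKM in the libraries labelled CM-RevDKO, against 26.6, 33.7 and 29.9 FPKM in controls. The groups did not overlap, and the CM-RevDKO libraries were spread more widely, with a coefficient of variation of 19.3%, against 11.8% in controls. Nkx2-5 averaged 51.1 ± 9.86 FPKM under the CM-RevDKO label and 30.1 ± 3.55 FPKM in controls (SD, n = 3 each), a ratio of 1.70. The log2 fold change of 0.73 (SE 0.15, 95% interval 0.37 to 1.09) did not pass (adjusted p = 0.0614). It passed narrowly without CM-RevDKO replicate 3 (0.86, adjusted p = 0.0421) and when genes needed a mean of at least 5 FPKM (adjusted p = 0.0464).

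Some atrial transcripts stood higher under the CM-RevDKO label, although the atria had been trimmed. Of 9 atrial markers, 7 were in the table and 6 were tested, none passed in limma (3 had an unadjusted p under 0.05), and their summed FPKM was 196 to 712 under the CM-RevDKO label, against 89.7 to 144 in controls. Myl7, Myl4 and Sln carried that sum and did not overlap between groups, whereas Nr2f2, Stard10 and Dkk3 overlapped. Of the defining ones, Bmp10 was listed at 1.94 FPKM in CM-RevDKO replicate 1 and at 0 in the other 5 libraries. Myl7, the atrial myosin light chain gene, singled out after its values were seen, stood at 288, 67.6 and 87.8 FPKM, against 51.9, 27.8 and 45.4 FPKM in controls. CM-RevDKO replicate 1 was highest both in these and in Nkx2-5. Without it the log2 fold change of Nkx2-5 was 0.59 (adjusted p = 0.108), and with the atrial covariate it was 0.53 (adjusted p = 0.672). The covariate did not overlap between groups, so that fit cannot separate it from the label. Within the controls, the library with the least atrial transcript, replicate 2, had the most Nkx2-5. The part of atrial tissue in these differences was not tested.

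**Figure D2:**
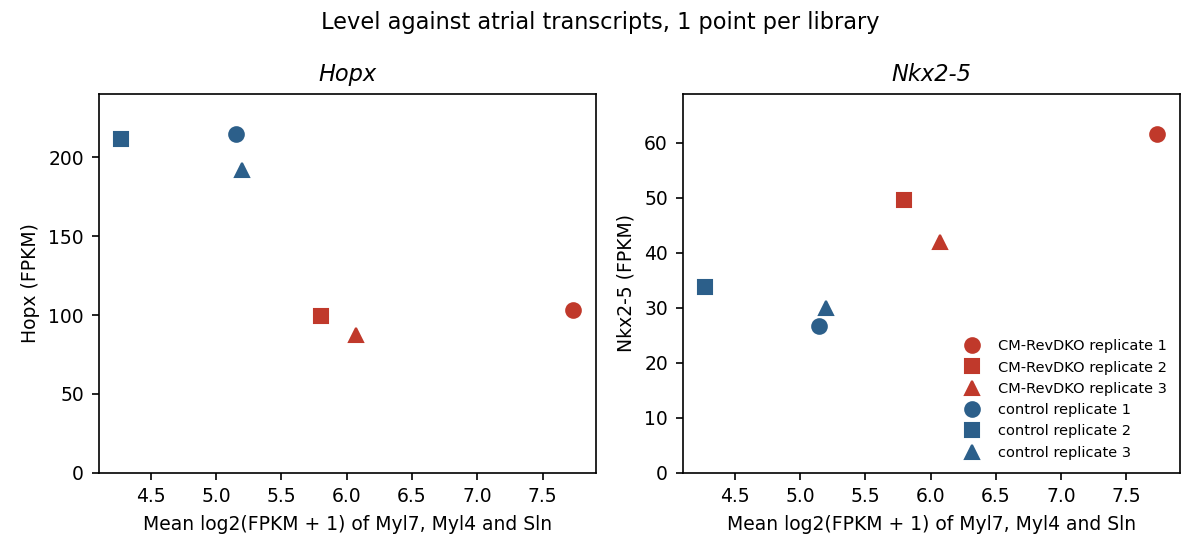
Level of Hopx (left) and Nkx2-5 (right) in FPKM against the mean log2(FPKM + 1) of the atrial transcripts Myl7, Myl4 and Sln, with 1 point per library, CM-RevDKO in red and control in blue. The atrial mean is 5.80 to 7.74 in the libraries labelled CM-RevDKO, above the 4.27 to 5.20 of controls. Hopx is 103 FPKM at the highest atrial mean, and 99.2 and 87.5 FPKM in the other CM-RevDKO libraries. The part of atrial tissue in these levels was not tested.

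Markers of other cells were summed in the same way, and their part in the differences between groups was not tested. Adipocyte markers (5 of 6 in the table) summed to 26.6 to 97.4 FPKM, against 26.0 to 33.1 FPKM in controls, high in CM-RevDKO replicates 1 and 2. Among them Adipoq averaged 4.39 FPKM, against 1.05 FPKM in controls, and Retn 1.99 FPKM, against 0.237 FPKM. Both stood higher without overlap, as did 12.6% of all genes tested, and neither passed (adjusted p = 0.185 and 0.158). Plin1, Cfd and Cidea overlapped. Fibroblast markers (8 of 8) summed to 399 to 514 FPKM, against 382 to 549 FPKM in controls. Endothelial markers (8 of 8) summed to 775 to 1260 FPKM, against 855 to 1007 FPKM in controls, and macrophage markers (6 of 6) to 116 to 192 FPKM, against 124 to 139 FPKM in controls. Smooth muscle and pericyte markers (8 of 8) summed to 255 to 275 FPKM, against 232 to 279 FPKM in controls. That sum hides differences between the genes, of which 5 had a positive and 3 a negative log2 fold change. Acta2, singled out after its values were seen, averaged 56.8 FPKM, against 34.4 FPKM in controls, without overlap but not past the test (adjusted p = 0.103). Tagln, Cnn1 and Myh11 had higher means with overlap, and Rgs5, the largest part of the sum, averaged 109 FPKM, against 114 FPKM in controls. Epicardial markers (4 of 5) summed to 3.85 to 8.24 FPKM, against 1.71 to 4.54 FPKM in controls. Of those, Upk3b averaged 2.42 FPKM, against 0.540 FPKM in controls, without overlap but not past the test (adjusted p = 0.157), and Wt1, Msln and Tbx18 overlapped. Conduction cell markers (3 of 7) summed to 5.63 to 8.68 FPKM, against 7.91 to 9.22 FPKM in controls. Of these 3, Hcn4 averaged 0.886 FPKM, against 1.96 FPKM in controls, without overlap but not past the test (adjusted p = 0.105). Tbx3 averaged 3.15 FPKM, against 4.25 FPKM in controls, and Gja5 3.47 FPKM, against 2.57 FPKM, both with overlap. Across these lists 1 marker passed the test: Abcc9, singled out after its value was seen, which encodes a subunit of ATP-sensitive potassium channels in cardiomyocytes as well as pericytes, fell to 31.1 FPKM, against 50.2 FPKM in controls (adjusted p = 0.0113).

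Neither GATA factor passed the test. Gata4 (ENSMUSG00000021944, chromosome 14, 63198914 to 63271712), which encodes the zinc finger activator needed for the adult heart's growth response, had 30.4, 32.9 and 28.9 FPKM in the libraries labelled CM-RevDKO, against 26.7, 24.2 and 24.5 FPKM in controls. Its groups did not overlap in the deposited values but did when scaled without mitochondrially encoded genes. The log2 fold change of 0.28 (SE 0.09, 95% interval 0.07 to 0.50) did not pass (adjusted p = 0.184). Gata6 (ENSMUSG00000005836, chromosome 18), a close paralog that shares work with GATA4 in heart muscle, had 17.0, 17.3 and 15.3 FPKM, against 16.9, 15.3 and 15.7 FPKM in controls. These values overlapped, with a log2 fold change of 0.05 (95% interval -0.17 to 0.27, adjusted p = 0.850). The ratio of Gata4 to Gata6 within a library, which does not depend on how libraries are scaled, was 1.79, 1.90 and 1.89 in the libraries labelled CM-RevDKO and 1.58, 1.58 and 1.56 in controls. These ratios did not overlap. The exact two-sided permutation test gave p = 0.1, the smallest that 3 against 3 allows (adjusted p = 0.133 over 8 ratios).

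The MEF2 family, whose members bind A/T-rich sites in muscle genes and are held in check by class IIa histone deacetylases, had no member past the test. Mef2a (ENSMUSG00000030557, chromosome 7, 67231163 to 67376456), the main family member of adult heart muscle, had 21.4, 23.2 and 24.3 FPKM in the libraries labelled CM-RevDKO, against 33.7, 29.4 and 29.9 FPKM in controls. The groups did not overlap, the ratio of means was 0.740, and the log2 fold change of -0.42 (SE 0.10, 95% interval -0.65 to -0.19) did not pass (adjusted p = 0.0800). Its promoter is shown because it carries the consensus of the MEF2 proteins themselves, which spans the start (from -2, plus strand of the gene) and which 3.19% of all windows held.

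Mef2a start (chr7:67372809-67373108, minus strand, MEF2 consensus in capitals): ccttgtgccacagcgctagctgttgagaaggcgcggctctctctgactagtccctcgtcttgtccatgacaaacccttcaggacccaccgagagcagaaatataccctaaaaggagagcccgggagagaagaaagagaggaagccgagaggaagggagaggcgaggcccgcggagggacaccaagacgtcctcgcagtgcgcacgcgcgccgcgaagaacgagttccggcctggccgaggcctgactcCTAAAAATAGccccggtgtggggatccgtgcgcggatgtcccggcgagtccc

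Mef2c (ENSMUSG00000005583, chromosome 13, 83504017 to 83667079), a family member needed early in heart development that is also active in endothelium, had 6.92, 7.83 and 6.56 FPKM, against 10.3, 8.54 and 7.58 FPKM in controls. These overlapped through 1 library of each group, CM-RevDKO replicate 2 and control replicate 3, and the log2 fold change of -0.27 (95% interval -0.57 to 0.03) did not pass (adjusted p = 0.353). Mef2d (ENSMUSG00000001419, chromosome 3, 88141941 to 88172091), which mediates stress responses of the adult mouse heart, had 18.7, 19.8 and 22.4 FPKM, against 19.6, 22.8 and 18.6 FPKM in controls. Its means were 20.3 FPKM in both groups, with a 95% interval of the log2 fold change from -0.27 to 0.27 (adjusted p = 1.00). The family sum of FPKM was 47.0, 50.8 and 53.2 in the libraries labelled CM-RevDKO, against 63.6, 60.8 and 56.1 in controls, without overlap. Mef2a made up 45.5%, 45.6% and 45.6% of that sum, against 53.0%, 48.4% and 53.3% in controls. The ratio of Mef2a to Mef2d was 1.14, 1.17 and 1.08, against 1.72, 1.29 and 1.61 in controls, again without overlap (exact permutation p = 0.1, adjusted p = 0.133), whereas that of Mef2a to Mef2c overlapped, with means of 3.25 in CM-RevDKO libraries and 3.55 in controls (exact permutation p = 0.4, adjusted p = 0.400).

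**Figure D3:**
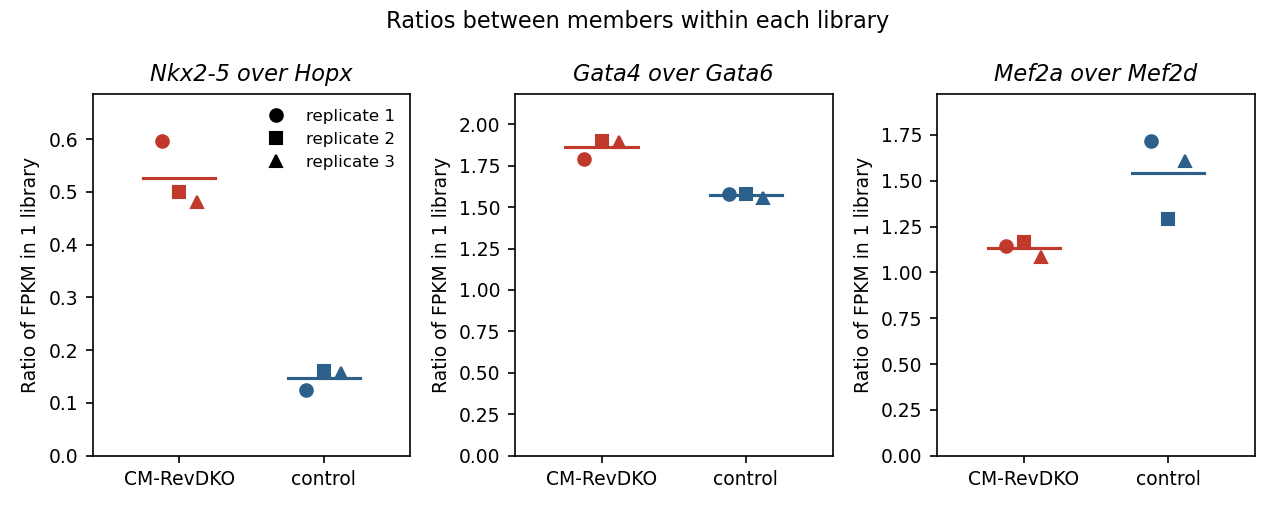
Ratio of FPKM between members within each library, for Nkx2-5 over Hopx, Gata4 over Gata6 and Mef2a over Mef2d, with CM-RevDKO (red) left of control (blue), bars for means and axes from 0 (n = 3 each). Nkx2-5 over Hopx averages 0.526 in the libraries labelled CM-RevDKO and 0.147 in controls, and none of these 3 ratios overlaps between groups. They are 3 of 8 ratios computed, of which Tbx20 over Tbx5 and Mef2a over Mef2c overlap and are not shown. No share over all gene pairs was computed.

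The ratio of Nkx2-5 to Hopx showed the largest difference of the 8 ratios computed. It was 0.597, 0.5005 and 0.480 in the libraries labelled CM-RevDKO, against 0.124, 0.160 and 0.156 in controls, a difference of 1.85 on the log2 scale (exact permutation p = 0.1, adjusted p = 0.133). Nkx2-5 had the largest rise and Hopx the largest fall of the members, so this ratio restates their fold changes. The ratios of Gata4 and Mef2a to Hopx likewise carry its fall and are no separate evidence. The ratio of Gata4 to Hopx averaged 0.319 ± 0.0211 in the CM-RevDKO libraries, against 0.122 ± 0.00685 in controls (SD, n = 3 each). That of Mef2a to Hopx averaged 0.239 ± 0.0354 in the CM-RevDKO libraries, against 0.151 ± 0.00984 in controls, without overlap, so Hopx stood lower relative to Mef2a as well. The ratio of Nkx2-5 to Gata4 was 2.02, 1.51 and 1.45, against 0.999, 1.40 and 1.22 in controls, also without overlap, by a narrow margin between CM-RevDKO replicate 3 and control replicate 2 (exact permutation p = 0.1, adjusted p = 0.133).

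The T-box genes leaned in opposite directions and neither passed. Tbx5 (ENSMUSG00000018263, chromosome 5, 119796514 to 119885220), an activator of the conduction and atrial programmes, had 5.73, 5.31 and 6.20 FPKM in the libraries labelled CM-RevDKO, against 6.04, 7.44 and 6.33 FPKM in controls. Its log2 fold change was -0.17 (95% interval -0.43 to 0.09, adjusted p = 0.5003). Tbx20 (ENSMUSG00000031965, chromosome 9, 24720812 to 24774303), which both activates and represses genes in adult cardiomyocytes, had 16.7, 18.9 and 14.0 FPKM, against 15.1, 11.9 and 12.5 FPKM in controls. CM-RevDKO replicate 3 lay below control replicate 1, and the log2 fold change was 0.31 (95% interval -0.01 to 0.64, adjusted p = 0.322). Their ratio overlapped between groups, with means for Tbx20 over Tbx5 of 2.92 in CM-RevDKO libraries and 2.02 in controls (exact permutation p = 0.2, adjusted p = 0.229). Hand2 (ENSMUSG00000038193, chromosome 8, 57320983 to 57324517), a factor best known from the embryonic right ventricle, had 21.5, 19.6 and 19.9 FPKM, against 18.4, 14.2 and 16.5 FPKM in controls. Its groups did not overlap in the deposited values but did when scaled without mitochondrially encoded genes. The log2 fold change of Hand2, 0.30 (SE 0.11, 95% interval 0.04 to 0.57), did not pass (adjusted p = 0.241).

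**Figure D4:**
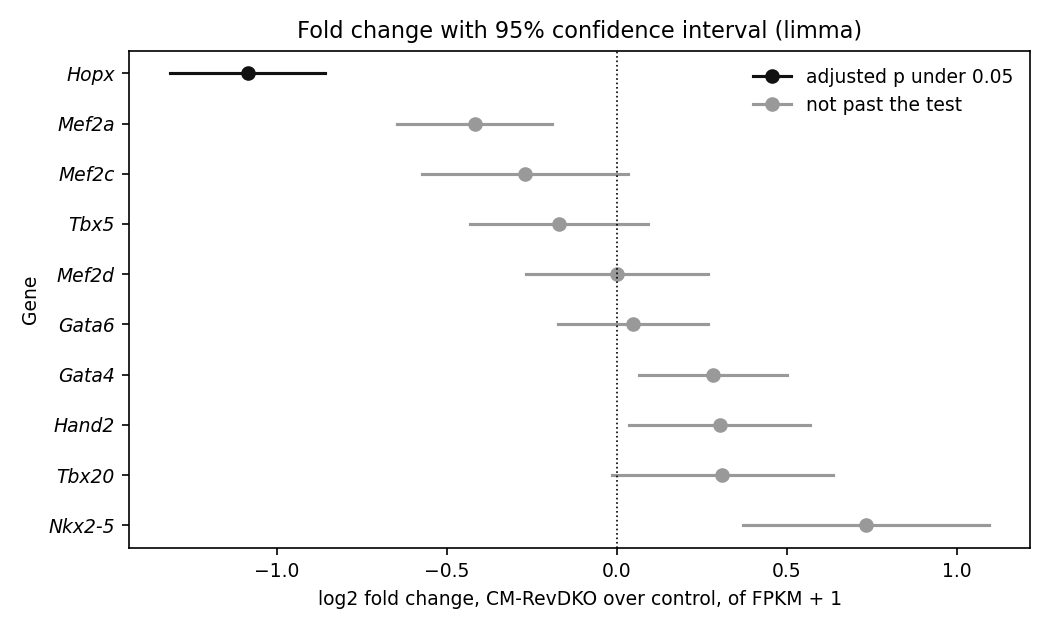
Fold change of each member, CM-RevDKO over control, on the log2(FPKM + 1) scale, with the 95% confidence interval from limma and black for genes past the test. The interval of Hopx (-1.31 to -0.86) lies far below 0, those of Mef2a, Gata4, Hand2 and Nkx2-5 exclude 0 without passing the adjusted test, and the other 5 include 0.

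Over all members, 5 of 10 had groups that did not overlap, 3 with CM-RevDKO higher and 2 with it lower. Among all genes tested 23.1% did not overlap, 12.6% higher and 10.5% lower. Scaled without mitochondrially encoded genes, Gata4 and Hand2 overlapped between groups and Tbx5 did not, whereas Hopx, Nkx2-5 and Mef2a were without overlap under each of the 3 scalings tried. The 5 members without overlap in the deposited values had an unadjusted limma p under 0.05, as did 16.6% of all genes tested. The median log2 fold change was 0.02 for the members and 0.02 for all genes tested. The order of levels differed between groups below Hopx. In the libraries labelled CM-RevDKO it ran Hopx, Nkx2-5, Gata4, Mef2a, Hand2, Mef2d, Tbx20, Gata6, Mef2c and Tbx5, and neighbours from Mef2a to Gata6 overlapped. In controls it ran Hopx, Mef2a, Nkx2-5, Gata4, Mef2d, Hand2, Gata6, Tbx20, Mef2c and Tbx5, with overlap between Mef2a and Nkx2-5, Nkx2-5 and Gata4, and Hand2 and Gata6.

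Promoter windows were read for 7 members (not Gata4, Gata6 and Tbx5), 10 windows in all. Of these, 6 held at least 1 of the 10 motifs searched. The share of all windows with at least 1 of these motifs was not computed, so this count is a description. Besides Hopx and Mef2a, a start of Mef2c held the half-site AGGTCA with the T-box half-site AGGTGT (13.7% of all windows), another held AGGTCA at 2 places, and Hand2 held the GATA site AGATAA (11.2%). Those of Nkx2-5, Mef2d and Tbx20 held none. No member window held TAGGTCA.

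The partners of these factors were described from lists. Of 31 other cardiac transcription factor genes, 21 were in the table, and none passed the limma test in either direction (2 with an unadjusted p under 0.05; median log2 fold change -0.08). The smallest p belonged to Meis2, a homeodomain cofactor, at 5.02 FPKM, against 6.80 FPKM in controls (adjusted p = 0.243). Of 10 partners of SRF and HOPX, among them Srf, Myocd and Hdac2, none passed (1 unadjusted; median 0.08). Fhl2, a LIM protein that binds SRF, had the smallest p and stood at 495, 589 and 622 FPKM, against 656, 675 and 808 FPKM in controls (adjusted p = 0.243). Of 23 cofactors of GATA4, MEF2 and TBX5, none passed (2 unadjusted; median -0.08), and the smallest p was that of Nfatc2, a calcineurin-dependent factor, at 3.69 FPKM, against 5.62 FPKM in controls (adjusted p = 0.162).

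Of 29 targets of the cardiac factors, 2 rose and none fell (15 with an unadjusted p under 0.05; median 0.13). Over all genes tested, 1.26% rose, 1.24% fell and 16.6% had an unadjusted p under 0.05. Groups did not overlap for 10 targets with CM-RevDKO higher and 6 with it lower, against 12.6% and 10.5% of all genes tested. The list was chosen with earlier results of these data known, and most of its genes are abundant. Those shares are therefore not a like background, and the counts are a description. The 2 that rose were the natriuretic peptide genes, which NKX2-5, GATA4 and TBX5 activate together. Nppa rose to 813, 589 and 630 FPKM in the libraries labelled CM-RevDKO, against 164, 134 and 143 FPKM in controls (log2 fold change 2.19, adjusted p = 7.37e-04), and Nppb to 392.2, 400.3 and 363 FPKM, against 59.5, 38.1 and 72.5 FPKM (2.79, adjusted p = 0.00115). Nppa is itself an atrial transcript, and the atrial values above stand beside it. Of 14 SRF targets, Nppa was again the single call (5 with an unadjusted p under 0.05; median 0.09).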

How the data were processed

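RNA of 6 mouse heart libraries, 3 labelled CM-RevDKO and 3 labelled control, was read from 1 deposited table. The submitters' processing notes name HISAT2, StringTie and mm10, without versions. The deposited values were read as FPKM, as StringTie reports. The header names no unit, and TPM would differ within a library by 1 factor. Low values showed no steps of whole reads (in each of 15 library pairs, no more than 4 low genes out of 2202 to 2660 had the same log2 ratio to 4 decimals), so depth is unknown and no counting interval is given. Each deposited gene reaches 1 FPKM in some library.

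Values were analysed as log2(FPKM + 1), which understates changes of low genes. Genes averaging 0.5 FPKM or more (13256) entered a limma fit (limma 3.58.1, R 4.3.3; intensity trend, group as the only term), two-sided, with Benjamini-Hochberg adjustment and 0.05 as threshold. The fit was tested on simulated data. With 3 libraries a group, a gene that did not pass is not shown to be unchanged. The labels do not say that replicates are separate animals, so p-values measure the spread between these samples, which may be technical. Ratios between members were tested by exact permutation, and 8 were computed, for pairs picked by hand. Motifs were searched in RefSeq promoter windows (GRCm38.p6). The members and gene lists were chosen with earlier results of these data known. Named genes are the members, up to 4 called genes per list or else its smallest p, and the 5 profiles nearest to Hopx. Alternatives covered the pseudocount, filters, scalings, left-out libraries, a replicate block, the trend and an atrial covariate.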

Additional observations from a re-analysis of the deposited data

How the results depend on the processing

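In all 16 alternatives Hopx kept its direction (log2 fold change -1.17 to -1.02) and in 15 its call, the exception being the atrial covariate. The count of members past the test was 1 to 2 with each library left out, 2 with a mean of at least 5 FPKM (Hopx and Nkx2-5) and 0 with the atrial covariate. The count of genes past the test, 332, was 120 to 322 with each library left out (120, 149 and 136 without control replicate 1, 2 or 3, and 213, 121 and 322 without CM-RevDKO replicate 1, 2 or 3). Leaving out CM-RevDKO replicate 1 together with control replicate 2 gave 105 genes, and the atrial covariate gave 30. That covariate did not overlap between groups, so calls lost with it do not measure a part of atrial tissue. Scaled without mitochondrially encoded genes the count split into 118 higher and 212 lower, against 167 higher and 165 lower with the values as deposited. With the replicate block it was 115, and no member's call changed. Same-numbered libraries correlated by -0.037, -0.064 and 0.093 in their deviations from group means, so the numbers were not taken as pairs. Directions of Gata6 and Mef2d are not settled. The log2 fold change of Gata6 was -0.0010 without both of those libraries, -0.017 scaled without mitochondrially encoded genes and -0.012 with the atrial covariate. That of Mef2d was -0.070 to 0.082 with each library left out, -0.035 with quantile normalization, -0.066 scaled without mitochondrially encoded genes and -0.0096 scaled to the same median. Its highest values were 0.137 without both of those libraries and 0.198 with the atrial covariate. The cause of these changes was not tested. The other 7 members kept their direction in all 16. Unknown depth limits the precision of the lower values, such as those of Tbx5.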
